A study of Mus musculus with 26 samples.

Results

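Liver RNA of 26 Eu-MYC mice was sequenced. The 34 genes followed here were chosen by name with earlier results of these data known, so their shares against all genes are a description. The deposited table held 36883 gene names, of which 16892 passed a filter on low counts. All 34 passed that filter. They form 3 classes: 18 cytosolic aminoacyl-tRNA synthetases, from Aars to Yars; 8 genes of the ATF4 branch of the integrated stress response (Atf4, Ddit3, Trib3, Asns, Chac1, Sesn2, Psat1 and Phgdh); and 8 chaperones and stress genes of the endoplasmic reticulum, or ER (Hspa5, Hsp90b1, Xbp1, Herpud1, Dnajb9, Sdf2l1, Creld2 and Pdia4). Every mouse carried the Eu-MYC transgene, in which the immunoglobulin heavy chain enhancer drives MYC in cells of the B lineage, so no group without the transgene was compared. The mice were kept under chronic jet lag (CJL), for 8 weeks, or under 12 hours of light and 12 hours of dark (12:12), for which no duration is given. Of the females, 8 were under 12:12 and 8 under jet lag. Of the males, 6 were under 12:12, with numbers 1 to 6, and 4 under jet lag, with numbers 5 to 8, and each library came from 1 numbered mouse. For age, health, jet lag schedule and hour of sampling, the sources used here give no value.

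Aminoacyl-tRNA synthetases load each transfer RNA with its amino acid and so supply every step of translation. ATF4 is a transcription factor whose own mRNA is translated better when initiation factor eIF2 is phosphorylated under amino acid shortage or ER stress, and it raises genes for amino acid synthesis, amino acid transport and many synthetases. The unfolded protein response of the ER, run by the sensors ERN1 (IRE1), ATF6 and EIF2AK3 (PERK), raises chaperones that fold secreted proteins, of which hepatocytes make large amounts.

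Stretches of 250 bases before the start of 6 of these genes are shown because they hold the letters by which the 2 programmes are usually recognised. They come from RefSeq (GRCm38.p6), which had such a stretch for 26 of the 34 genes in the table used. In the first 3, capitals mark the core of the amino acid response element, TGATGNAA on either strand, the site bound by ATF4 with C/EBP partners. The Tars stretch is chr15:11399659-11399908 on the minus strand. The Asns stretch is chr6:7693210-7693459 on the minus strand, and the Gars stretch is chr6:55037751-55038000 on the plus strand.
Tars: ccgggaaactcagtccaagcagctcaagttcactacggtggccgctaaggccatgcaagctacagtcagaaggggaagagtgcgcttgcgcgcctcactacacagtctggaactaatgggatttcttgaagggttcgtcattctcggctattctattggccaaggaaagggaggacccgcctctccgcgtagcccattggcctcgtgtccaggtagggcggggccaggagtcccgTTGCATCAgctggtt
Asns: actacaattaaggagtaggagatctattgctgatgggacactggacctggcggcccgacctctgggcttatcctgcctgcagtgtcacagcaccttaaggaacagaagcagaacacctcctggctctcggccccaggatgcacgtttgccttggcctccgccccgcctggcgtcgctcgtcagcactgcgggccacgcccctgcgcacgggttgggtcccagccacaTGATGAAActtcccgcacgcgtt
Gars: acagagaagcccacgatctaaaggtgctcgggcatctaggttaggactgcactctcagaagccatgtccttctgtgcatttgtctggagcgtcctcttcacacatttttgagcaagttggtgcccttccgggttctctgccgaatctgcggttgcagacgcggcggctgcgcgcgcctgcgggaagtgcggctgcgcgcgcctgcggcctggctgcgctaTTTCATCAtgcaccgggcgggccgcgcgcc
In the next 3, capitals mark the ER stress element, CCAAT and CCACG with 9 bases of any kind between them, read by ATF6 with NF-Y. In Herpud1 they mark its second form, ATTGG and CCACG with 1 base between them. Both were searched on either strand. The Hspa5 stretch is chr2:34771840-34772089 (plus strand), the Hsp90b1 stretch is chr10:86705445-86705694 (minus strand) and the Herpud1 stretch is chr8:94386179-94386428 (plus strand).
Hspa5: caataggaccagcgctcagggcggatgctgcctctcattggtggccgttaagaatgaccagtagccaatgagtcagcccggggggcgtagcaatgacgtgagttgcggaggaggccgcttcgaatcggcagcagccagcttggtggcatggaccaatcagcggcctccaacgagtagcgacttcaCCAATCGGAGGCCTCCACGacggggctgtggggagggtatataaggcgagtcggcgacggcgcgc
Hsp90b1: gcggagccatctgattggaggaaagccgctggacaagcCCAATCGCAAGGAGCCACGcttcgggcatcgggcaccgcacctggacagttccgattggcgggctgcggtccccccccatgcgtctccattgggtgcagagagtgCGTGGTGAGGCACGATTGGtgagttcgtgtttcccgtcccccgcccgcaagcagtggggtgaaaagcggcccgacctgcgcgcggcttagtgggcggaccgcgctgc
Herpud1: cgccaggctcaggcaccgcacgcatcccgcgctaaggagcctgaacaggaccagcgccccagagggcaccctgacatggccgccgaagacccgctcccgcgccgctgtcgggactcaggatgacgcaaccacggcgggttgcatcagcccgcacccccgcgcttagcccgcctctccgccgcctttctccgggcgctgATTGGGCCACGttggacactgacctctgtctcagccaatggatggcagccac

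The amino acid response core ended 8 bases before the start of Tars, 16 bases before that of Asns and 23 bases before that of Gars. It was also found before Aars, Chac1 and Herpud1, which makes 6 of the 26 genes searched, against 3.45% of 32851 promoters of the same length. A gene counted if any of its promoters matched, while the background shares here are per promoter, over 27025 gene names. The ER stress element stood before Hspa5, Hsp90b1 (in 2 places) and Creld2, all of the ER class, against 0.113% of promoters. Its second form stood before Herpud1, against 0.0304% of promoters. The E-box CACGTG, a site of MYC and of the clock proteins, stood before Aars, Iars and Dnajb9, against 6.02% of promoters. These are matches of letters and say nothing of binding in these livers.

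Library totals ran from 45364552 to 50242014 counts, and levels are given as CPM, the count as a share of that total on a common scale. A gene with 0 counts may have had up to 3 counts, at most 0.0661 CPM, by counting error alone. The liver identity of the samples showed in 7 hepatocyte marker genes, whose summed level was 135694.8 to 248734.1 CPM. Libraries stood apart in 1 respect that touches these genes: Cd79a, a part of the B cell receptor, was at 14.5 to 144.3 CPM in 8 libraries and at 1.28 to 2.95 CPM in the other 18. The limit of 8 CPM that separates them falls in this gap, between female 2 under jet lag (14.5) and female 5 under 12:12 (2.95). The 8 libraries were 2 of 8 females under 12:12 (numbers 6 and 7), 3 of 8 females under jet lag (2, 5 and 6), 2 of 6 males under 12:12 (3 and 5) and 1 of 4 males under jet lag (8). In bulk tissue, more cells of a type and more RNA per cell cannot be told apart. P-values measure the spread between these mice, and adjusted p-values below come from the edgeR quasi-likelihood test with Benjamini-Hochberg adjustment over all 16892 genes, with a threshold of 0.05.

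Among the synthetases, 2 of 18 rose under jet lag over both sexes: Tars, which charges threonine, by 1.59-fold, and Cars, which charges cysteine, by 1.34-fold. They were also the only called genes among the 34, in a comparison that called 0.781% of all genes tested (0.444% higher and 0.337% lower). The other 16 synthetases had log2 differences from -0.09 (Eprs) to 0.16 (Wars), and the class median of 0.03 was next to the 0.02 of all genes.

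Tars was measured at 71.8 CPM (lowest), 95.8 (median) and 101.6 (highest) in females under 12:12 and at 95.9, 134.0 and 177.3 in females under jet lag. In males under 12:12 it ran from 82.2 over a median of 96.6 to 113.0 CPM, and the 4 males under jet lag had 158.7, 210.9, 169.9 and 137.5 CPM. Only female 8 under jet lag, at 95.9 CPM, lay within the range of its controls, and the males did not overlap. All 12 jet lag libraries were above the 12:12 median of their sex. By plain CPM, Tars was the single member without overlap in males, where 0.574% of all genes were higher without overlap and 0.616% were lower. In CPM divided by the TMM factors (the scaling of the fits) Cars did not overlap in males either, against 0.633% of all genes higher and 0.71% lower. No member was without overlap in females on either scale, as were 0.136% of all genes on the higher and 0.0355% on the lower side by plain CPM, and 0.077% and 0.0414% after scaling. The log2 difference over both sexes was 0.67 (SE 0.11, adjusted p = 0.00201, n = 12 and 14), and it was called again in each of 26 fits that left out 1 library, with adjusted p up to 0.00563.

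**Figure D1:**
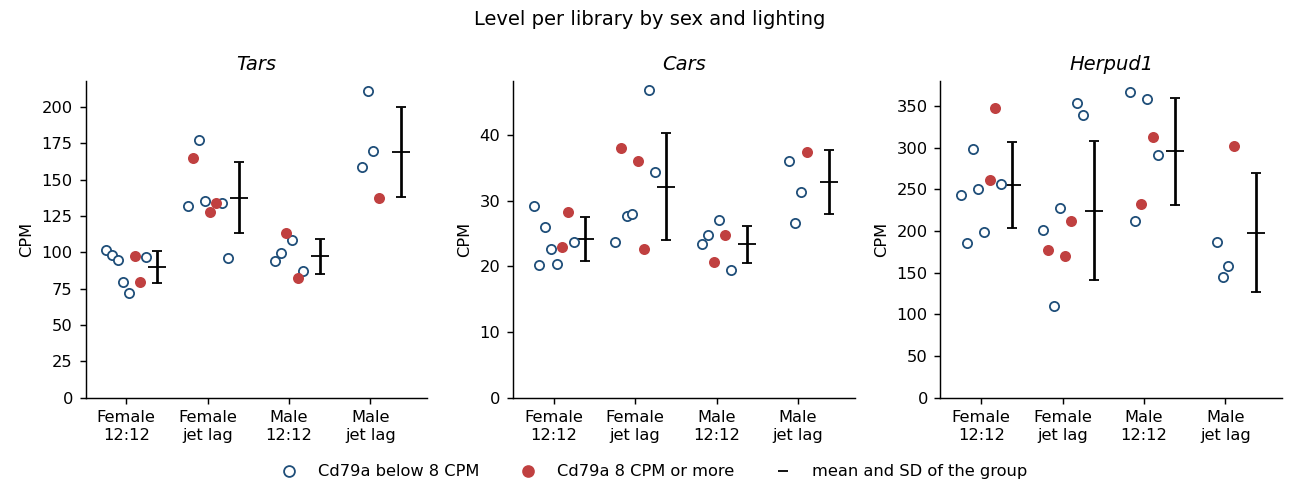
Levels of Tars, Cars and Herpud1 in CPM (y axis) in every library of the 4 groups (x axis), with the libraries at or above 8 CPM of Cd79a in red and the mean and SD of each group as a black bar. The 4 males under jet lag have 137.5 CPM of Tars or more, above every male under 12:12 (up to 113.0), while the groups of Cars and Herpud1 overlap.

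Cars was measured at 20.2, 23.3 and 29.2 CPM (lowest, median, highest) in females under 12:12 and at 22.6, 31.1 and 46.8 in females under jet lag. Males under 12:12 had 19.4, 24.1 and 27.0 CPM, and males under jet lag 36.0, 26.6, 31.3 and 37.4 CPM. Groups overlapped in both sexes, in males only through number 6 at 26.6 CPM, and 11 of 12 jet lag libraries were above the 12:12 median of their sex (10 of 12 after TMM scaling). The log2 difference was 0.42 (SE 0.10, adjusted p = 0.0396). Its call was lost in 14 of 26 fits without 1 library, with adjusted p up to 0.0824 without female 2 under jet lag. Those were females 2, 4, 5 and 8 and males 2, 5 and 6 under 12:12, and females 2, 3, 5, 7 and 8 and males 5 and 7 under jet lag. The call was also lost with no filter (adjusted p = 0.0566), with limma-voom (adjusted p = 0.0546) and without the 8 libraries high in Cd79a (log2 0.38, adjusted p = 0.0821).

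Within a sex, none of the 34 genes passed in edgeR, where 0% of all genes did in females and 0.0118% in males. At an unadjusted p under 0.05 there were 2 members in females and 6 in males, against 772 and 1630 of 16892 genes. DESeq2 called 1 member, Tars, in each sex, and 0.326% of all genes in females and 0.527% in males. Tars came closest in both, with log2 0.57 (SE 0.13, adjusted p = 0.158) in females and 0.83 (SE 0.17, adjusted p = 0.116) in males. In males it passed once the 8 libraries high in Cd79a were left out (0.89, adjusted p = 0.0101). Cars stood at 0.38 (adjusted p = 0.610) in females and 0.49 (adjusted p = 0.321) in males. An interaction term tested whether females and males differed in the effect of lighting, and it called no member and 0% of all genes (902 of them at an unadjusted p under 0.05, Vars alone among the members). For Tars it was -0.26 (SE 0.22, adjusted p = 0.816), and for Vars, the valine enzyme, -1.14 (SE 0.51, adjusted p = 0.814). In males under jet lag Vars was at 46.1, 35.6, 44.2 and 161.2 CPM. The highest of these was number 8, the library with 144.3 CPM of Cd79a.

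In the table deposited by the authors, which compares 12:12 over jet lag, the same 2 of the 34 genes had an adjusted p under 0.05. The authors' deposited table gives Tars a log2 value of -0.66 (adjusted p = 0.000131) and Cars one of -0.42 (adjusted p = 0.0142). That threshold was passed by 1.26% of 17669 genes in the authors' deposited table.

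**Figure D2:**
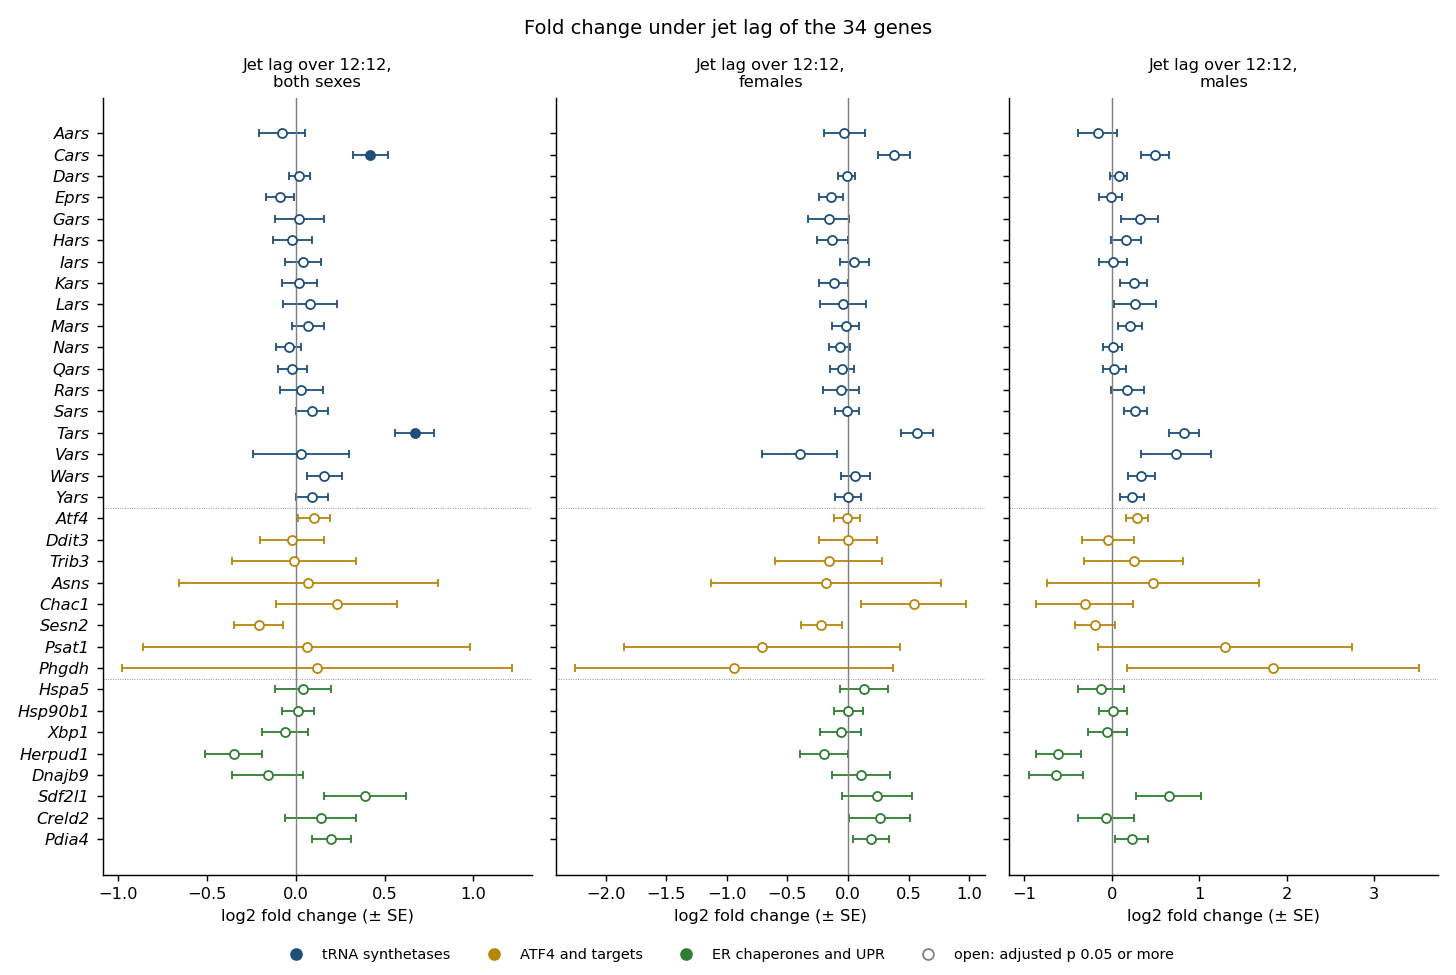
Log2 difference of jet lag over 12:12 for each of the 34 genes by class (points, bars are standard errors, filled where the adjusted p is under 0.05), over both sexes, in females and in males. Over both sexes Tars (0.67) and Cars (0.42) are filled and the other 32 lie between -0.35 (Herpud1) and 0.39 (Sdf2l1).

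Between the sexes, 3 of 18 synthetases were lower in females: Mars, the methionine enzyme, by 1.44-fold, Tars by 1.27-fold and Nars, the asparagine enzyme, by 1.18-fold. With Atf4 these were 4 of the 34 genes, 11.8%, all lower in females. Of all genes 9.13% were called (4.67% higher and 4.46% lower in females), so the share called in either direction is near the background. The share of lower members was above the 4.46% of all genes, a difference that was not tested. Of the 18 synthetases, 17 had a negative value in the fits, with a class median of -0.19 against -0.02 over all genes. The fits divide CPM by TMM factors, which were 0.962 to 1.19 in females and 0.802 to 1.08 in males. By plain CPM, the females above the male median were 16 of 16 for Kars, 14 for Dars and 13 for Rars. After scaling they were 14, 5 and 9. For Aars and Mars they were 0 on both scales. Markers of other cells differed between the sexes too. Of 8 T and NK cell genes 4 were higher in females, led by Cd3e (log2 1.69, adjusted p = 0.00192), with a list median of 0.87, and their summed level was 2.36 to 6.02 CPM in females and 1.62 to 3.47 in males. The B-lineage gene Dntt was higher in females, and the plasma cell gene Fkbp11 and the hepatocyte gene Serpina1a were lower. Their part in the sex differences of the 34 genes was not tested.

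Mars was at 51.6, 58.2 and 78.2 CPM in females under 12:12, 41.1, 62.3 and 73.7 in females under jet lag, and 61.2, 75.2 and 85.2 in males under 12:12 (lowest, median and highest). The 4 males under jet lag had 91.3, 80.4, 86.2 and 87.9 CPM, above every female. All 16 females were below the male median, with a log2 difference of -0.53 (SE 0.09, adjusted p = 0.000168), the 1 call kept in all 26 fits without a library. Mars overlaps Ddit3 in the annotation, and the strand setting of the counting was not stated.

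Nars ran from 86.1 over 102.8 to 143.1 CPM in females and from 88.8 over 111.1 to 134.4 in males, with wide overlap (log2 -0.23, SE 0.07, adjusted p = 0.0322). Tars had a difference of -0.34 (SE 0.11, adjusted p = 0.0411) with lighting as a term. By plain CPM and after TMM scaling alike, 7 of 16 females were above the male median of Tars. Its call was lost in 16 of 26 fits without 1 library. That of Nars was lost in 8 of them, both were lost with no filter, and that of Tars also with limma-voom (adjusted p = 0.0544). Without the 8 libraries high in Cd79a, the count of members that differed between the sexes went from 4 to 12 (11 lower in females and 1 higher), against 19.4% of all genes. The lower ones then included 9 synthetases: Aars, Eprs, Hars, Lars, Mars, Nars, Sars, Tars and Yars.

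Where Cd79a was at or above 8 CPM, 9 of 18 synthetases were higher and 1 was lower than in the other 18 libraries, with sex and lighting as terms. Over the 34 genes 16 passed, or 47.1%, against 42.7% of all genes (23.1% higher and 19.6% lower), so the share of members called is near the background. The largest difference in the class was that of Vars, at 2.17-fold. The count was 4 of 34 in males alone (14.4% of all genes) and 7 under jet lag alone (16.7%), splits with fewer libraries. Cd79a marks B cells and was not among the 34 genes, and this split of libraries comes from the data, not from the study's groups.

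Vars was at 43.4, 75.4 and 161.2 CPM (lowest, median, highest) in the 8 libraries and at 26.6, 36.0 and 46.1 in the 18, with a log2 difference of 1.11 (SE 0.16, adjusted p = 4.47e-06). Gars, the glycine enzyme, was at 50.9, 65.8 and 112.6 CPM against 40.3, 46.1 and 49.2 (log2 0.52, SE 0.10, adjusted p = 0.000161). Lars, the leucine enzyme, was at 38.2, 48.9 and 93.1 CPM against 26.1, 34.4 and 45.5 (log2 0.52, SE 0.12, adjusted p = 0.000881). By plain CPM, Gars was the synthetase whose libraries did not overlap, as was true of 3.94% of all genes on the higher side and 0.0178% on the lower, and the ranges of Vars overlapped only between 43.4 and 46.1 CPM. After TMM scaling Gars overlapped as well (47.2 to 100.8 against 39.3 to 59.5 scaled CPM), and all synthetases did, against 2.92% of all genes higher and 0.142% lower without overlap.

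Rars (arginine) ran from 38.3 to 78.0 CPM with a median of 52.4, against 31.4 to 43.2 with a median of 36.9 (log2 0.39, adjusted p = 0.00251). Hars (histidine) ran from 41.6 to 78.2 with a median of 48.8, against 30.5 to 44.6 with a median of 38.5 (log2 0.33, adjusted p = 0.00699). Hars overlaps its mitochondrial relative Hars2 in the annotation, so its counts are uncertain. Other called members overlap annotated genes too, among them Aars (Ddx19b), Wars (Wdr25), Lars (Rps19-ps4) and Cars (Gm15580). Iars (isoleucine) ran from 53.6 to 78.9 with a median of 62.0, against 30.6 to 61.4 with a median of 44.8 (log2 0.30, adjusted p = 0.00542). Wars (tryptophan) ran from 16.3 to 30.8 with a median of 20.1, against 12.6 to 19.3 with a median of 15.1 (log2 0.29, adjusted p = 0.00967). By plain CPM these 4 enzymes were above the median of the 18 libraries in all 8 libraries, though every range overlapped. After TMM scaling that held for Hars and Iars, while Wars was above it in 7 and Rars in 6 of 8.

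The calls of smallest size were those of Kars and Qars, lost in 2 and 3 of 26 fits without 1 library. Kars (lysine) ran from 80.9 to 150.7 CPM with a median of 106.2, against 65.8 to 97.9 with a median of 82.3 (log2 0.25, adjusted p = 0.0271). Qars (glutamine) ran from 51.8 to 88.2 with a median of 72.5, against 50.0 to 61.6 with a median of 55.5 (log2 0.20, adjusted p = 0.0243). Aars, the alanine enzyme, went the other way, from 152.9 to 301.3 CPM with a median of 196.7, against 181.1 to 364.3 with a median of 260.5. Its log2 difference was -0.46 (SE 0.11, adjusted p = 0.00174), and 6 of 8 libraries were below the median of the others (7 after TMM scaling). Tars had a value of -0.21 (adjusted p = 0.111) and Cars one of -0.12 (adjusted p = 0.385) in this comparison. The TMM scaling of the fits lowers the 8 libraries against their plain CPM, with factors of 1.02 to 1.19 against 0.802 to 1.06 in the others. Mars and Nars were above the median of the others in all 8 libraries by CPM (8 and 5 of 8 after scaling), but at 0.07 (adjusted p = 0.563) and 0.01 (adjusted p = 0.943) in the fit.

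**Figure D3:**
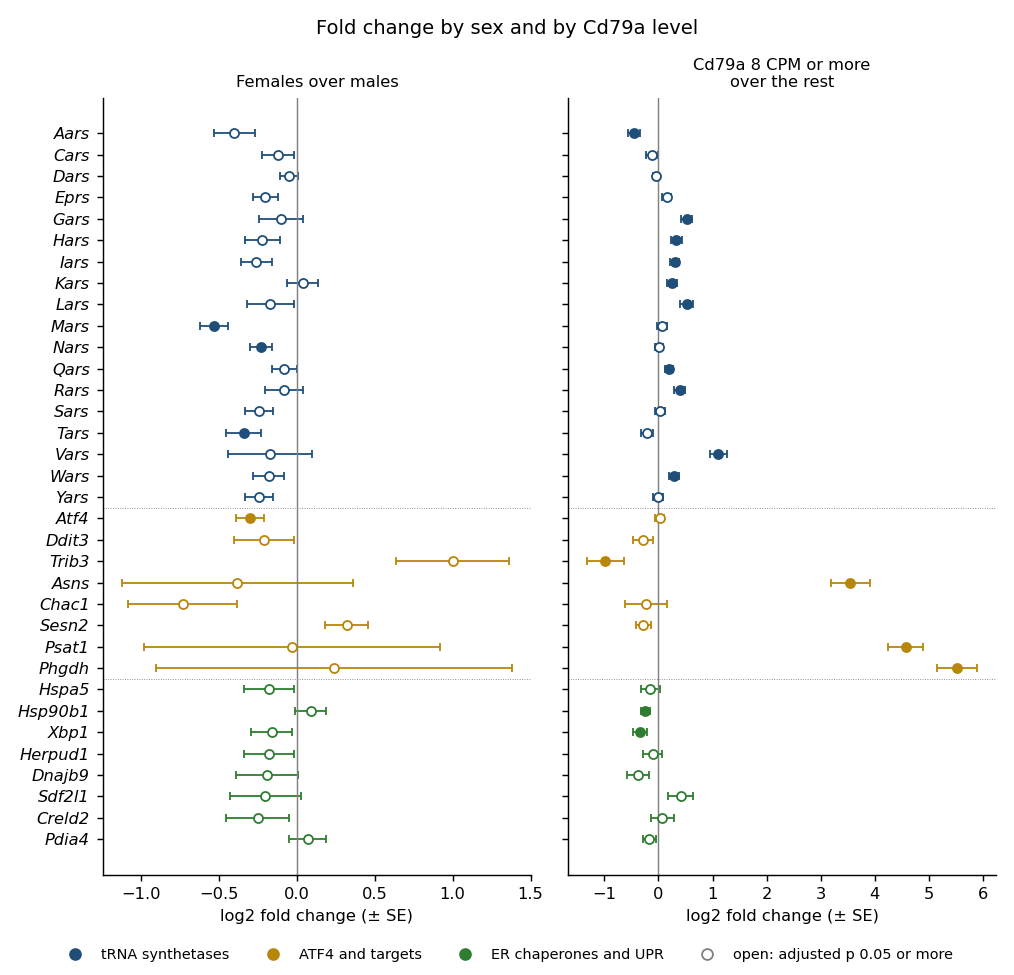
Log2 differences of the 34 genes (points, bars are standard errors, filled where the adjusted p is under 0.05) for females over males and for libraries at or above 8 CPM of Cd79a over the rest. In the second comparison Phgdh (5.52), Psat1 (4.57) and Asns (3.55) lie far to the right of the synthetases, which reach 1.11 (Vars).

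Markers of other cells moved with this split. Apart from Cd79a, which defines the split, the summed level of 14 B-lineage genes was 40.8 to 375.8 CPM in the 8 libraries and 9.1 to 21.7 in the 18, with 10 of 12 tested genes higher and 1 lower. Neutrophil genes were at 6.88 to 449.9 against 1.19 to 7.32 CPM (8 of 8 higher), Kupffer cell genes at 421.2 to 2080.4 against 216.6 to 474.8 (6 of 6 higher), and proliferation genes at 65.8 to 745.9 against 20.2 to 38.5 (8 of 8 higher). Plasma cell genes summed to 132.7 to 428.9 against 98.4 to 186.6 CPM (4 of 6 higher). T and NK cell genes were at 1.62 to 5.58 against 1.73 to 6.02 CPM, with 2 of 8 lower. Of 7 hepatocyte genes 1 was higher and 3 were lower in the fits. Their summed level by plain CPM was higher, at 168474.1 to 248734.1 (median 196908.9) against 135694.8 to 180386.8 (median 166166.6). Of 8 pancreatic acinar genes, Prss2, Cpa1, Cpb1 and Pnlip were at 0 in the 8 libraries, and Prss2, Cpb1 and Cel in the 18. Their summed level was 2.36 to 11.1 against 4.25 to 16.4 CPM, and Cela1, the 1 gene of them that passed the filter, was lower in the 8 libraries (log2 -1.11, adjusted p = 0.000796). The part of these cells in the differences of the 34 genes was not tested.

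In the ATF4 class, none of 8 genes passed in edgeR under jet lag over both sexes. At an unadjusted p under 0.05 there were 0, against 1353 of 16892 genes. Sesn2, a sestrin that restrains mTORC1, and Atf4 itself had the smallest p of the class. The class median was 0.07, against 0.02 over all genes.

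Atf4 was at 44.6, 61.7 and 83.5 CPM in females under 12:12 and 54.7, 65.5 and 81.0 in females under jet lag (lowest, median, highest). Males under 12:12 had 59.2, 66.0 and 72.2 CPM, and males under jet lag 71.2, 86.6, 80.1 and 80.9 CPM, overlapping only between 71.2 and 72.2. After TMM scaling the males overlapped more, with 70.2 to 99.9 under jet lag against 57.8 to 77.9 scaled CPM of Atf4. On that scale 4 of 6 controls were above the lowest jet lag male for Atf4. Its log2 difference was 0.10 (SE 0.09, adjusted p = 0.963) over both sexes and 0.29 (SE 0.13, adjusted p = 0.495) in males. Sesn2 had medians of 4.99 CPM in females under 12:12, 4.24 in females under jet lag and 3.26 in males under 12:12, and males under jet lag had 3.83, 2.84, 3.04 and 2.65 CPM. Its log2 difference was -0.21 (SE 0.14, adjusted p = 0.839). Ddit3, which encodes CHOP, Trib3, a pseudokinase that CHOP and ATF4 raise, and Chac1, which degrades glutathione, had values of -0.02, -0.01 and 0.23, with adjusted p of 0.999 each.

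Between the sexes Atf4 was lower in females, with a log2 difference of -0.30 (SE 0.09, adjusted p = 0.0281) and 11 of 16 females below the male median (13 after TMM scaling). The call was lost in 5 of 26 fits without 1 library: female 5 and males 1 and 2 under 12:12, and males 6 and 7 under jet lag, with adjusted p up to 0.102 without male 6. Across both lightings it ran from 44.6 to 83.5 CPM in females (median 62.5) and from 59.2 to 86.6 CPM in males (median 69.9). Trib3 had a value of 1.00 in the other direction (SE 0.36, adjusted p = 0.0856), with all 16 females above the male median (15 after TMM scaling). It was at 2.07 to 10.5 CPM in females and 0.435 to 6.3 CPM in males. Asns, asparagine synthetase, had -0.38 (SE 0.74, adjusted p = 0.824) over all libraries. Without the 8 libraries high in Cd79a it was lower in females, with log2 -2.02 (SE 0.33, adjusted p = 0.000136). In those 18 libraries females had 0.0812 to 0.551 CPM of Asns (4 to 27 counts) and males 0.487 to 2.9 CPM (24 to 143 counts), overlapping between 0.487 and 0.551.

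The largest differences of the 34 genes between libraries high and low in Cd79a were those of 3 enzymes of amino acid synthesis in this class. Phgdh and Psat1, the first and second enzymes of serine synthesis, were 45.8-fold and 23.7-fold higher, and Asns 11.7-fold higher, in fits with sex and lighting as terms. Trib3 was lower, and Atf4, Ddit3, Chac1 and Sesn2 did not pass, so 3 of 8 were higher and 1 was lower, against 23.1% and 19.6% of all genes, and the share called of 4 in 8 is near the background of 42.7%. Asns, Psat1 and Phgdh passed in each alternative that was run for this comparison, including fits on males only, on females only, and under each lighting, but their sizes moved. Asns stood at log2 2.22 in males alone (adjusted p = 0.0293) and 4.27 in females alone (adjusted p = 4.07e-08), and that difference between the sexes was not tested. With the replicate block Phgdh stood at 4.05 (adjusted p = 0.000633) and Psat1 at 3.45 (adjusted p = 0.00606).

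Phgdh was at 1.38, 5.9 and 17.1 CPM in the 8 libraries (66 to 801 counts) and at 0.0209, 0.113 and 0.303 CPM in the 18 (1 to 15 counts), with a log2 difference of 5.52 (SE 0.37, adjusted p = 1.1e-11). Psat1 was at 2.38, 13.4 and 32.4 CPM against 0.246, 0.496 and 1.36 (log2 4.57, SE 0.32, adjusted p = 1.93e-11). Asns was at 2.11, 7.17 and 12.9 CPM against 0.0812, 0.435 and 2.9 (log2 3.55, SE 0.36, adjusted p = 1.21e-08). Phgdh and Psat1 did not overlap between the libraries, by plain CPM or after TMM scaling. Of all genes, 3.94% and 2.92% were higher without overlap on these scales. Asns overlapped only through males 1 and 2 under 12:12, at 2.5 and 2.9 CPM.

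The 8 libraries can be read in the order of their Cd79a level. Female 2 under jet lag, the lowest in Cd79a with 14.5 CPM, had 1.38 CPM of Phgdh, 2.38 of Psat1 and 2.11 of Asns, the lowest of the 8 for each gene. Male 5 under 12:12 (Cd79a 26.2) had 1.85 of Phgdh, female 6 under jet lag (31.4) had 3.29, and male 3 under 12:12 (45.6) had 3.83 CPM. Female 5 under jet lag (62.7) had 7.98, female 7 under 12:12 (66.1) had 8.82, female 6 under 12:12 (105.2) had 17.1, and male 8 under jet lag (144.3) had 14.5 CPM of Phgdh. The order of Phgdh was thus that of Cd79a but for the last pair. Psat1 was highest in that same pair, with 32.4 CPM in female 6 and 30.3 CPM in male 8. These levels come from the same libraries and are given as a description.

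Trib3 was at 0.435, 2.76 and 5.85 CPM in the 8 libraries and at 0.792, 5.17 and 10.5 in the 18. Its log2 difference was -0.98 (SE 0.34, adjusted p = 0.0227), with 7 of 8 libraries below the median of the others and wide overlap. The call was lost in 3 of 26 fits, without females 6 or 7 or male 3 under 12:12 (adjusted p up to 0.0624), in males alone (-0.91, adjusted p = 0.353), under jet lag alone (-0.43, adjusted p = 0.511) and with the replicate block (-1.05, adjusted p = 0.389). Atf4 had a difference of 0.02 (SE 0.09, adjusted p = 0.855), with 59.2 to 83.5 CPM against 44.6 to 86.6. Ddit3 had -0.29 (adjusted p = 0.237), Sesn2 -0.28 (adjusted p = 0.103) and Chac1 -0.23 (adjusted p = 0.661). Proliferation and B-lineage markers were higher in the same 8 libraries, as given above, and their part in the 3 enzymes' levels was not tested.

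**Figure D4:**
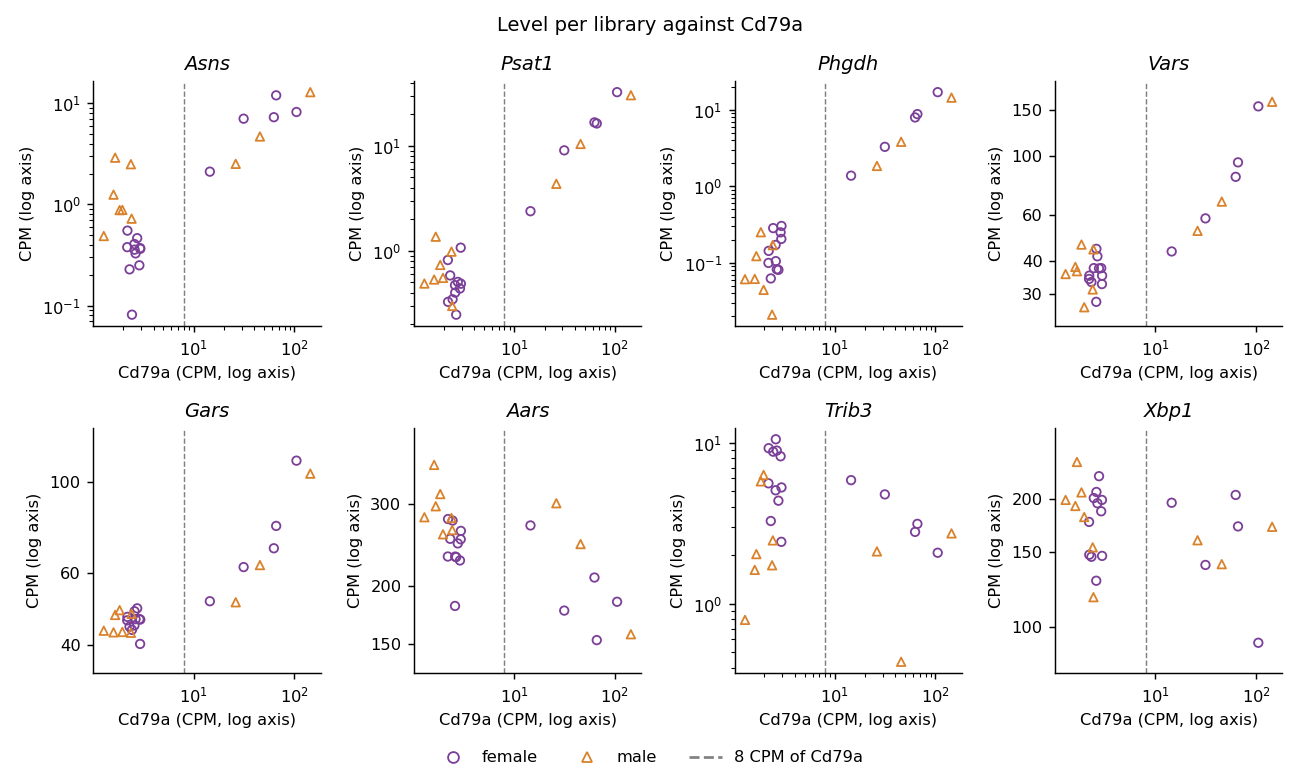
CPM of 8 of the genes (y axes, log scale) against CPM of Cd79a (x axis, log scale) in the 26 libraries, with females as circles, males as triangles and 8 CPM as a dashed line. Among the 8 libraries, Phgdh, Psat1 and Asns are lowest (1.38, 2.38 and 2.11 CPM) in the one with 14.5 CPM of Cd79a. Asns does not follow the order of Cd79a throughout. Aars, Trib3 and Xbp1 have lower medians in the 8 libraries.

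In the ER class, none of 8 genes passed in edgeR under jet lag, and the class median of 0.02 was the same as over all genes. At an unadjusted p under 0.05 there was 1, against 1353 of 16892 genes. The smallest p was that of Herpud1, a membrane protein of ER-associated degradation. The next was that of Pdia4, a disulfide isomerase.

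Herpud1 was at 185.6, 253.7 and 347.3 CPM in females under 12:12 and 110.5, 207.1 and 354.0 in females under jet lag (lowest, median, highest). Males under 12:12 had 212.3, 302.0 and 367.3 CPM, and males under jet lag 186.5, 145.1, 158.4 and 302.1 CPM. In males 3 of 4 jet lag libraries lay under every control, and number 8, high in Cd79a, lay among them. The log2 difference was -0.35 (SE 0.16, adjusted p = 0.537) over both sexes and -0.61 (SE 0.26, adjusted p = 0.463) in males.

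Pdia4 had medians of 196.5 CPM in females under 12:12, 230.4 in females under jet lag and 155.6 in males under 12:12, and males under jet lag had 212.4, 226.1, 187.4 and 175.0 CPM. The groups overlapped, though 10 of 12 jet lag libraries (9 after TMM scaling) were above the 12:12 median of their sex (log2 0.20, SE 0.11, adjusted p = 0.757). Sdf2l1, a partner of BiP, had 0.39 (SE 0.23, adjusted p = 0.770). The chaperones Hspa5, which encodes BiP, and Hsp90b1, which encodes GRP94, had 0.04 (SE 0.16) and 0.01 (SE 0.09). Xbp1, the transcription factor spliced by ERN1, had -0.06 (SE 0.13), the cochaperone Dnajb9 -0.16 (SE 0.20) and Creld2, an ER protein with disulfide isomerase activity, 0.14 (SE 0.20). Counts per gene do not separate spliced from unspliced Xbp1.

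No ER gene passed between the sexes in edgeR, with values from -0.25 (Creld2) to 0.09 (Hsp90b1). None had an unadjusted p under 0.05, against 3766 of 16892 genes. In libraries high in Cd79a, 2 of 8 were lower and none was higher, against 19.6% of all genes lower and 23.1% higher, so the share of lower members is near the background. Hsp90b1 was at 664.1, 797.1 and 1203.4 CPM against 719.8, 909.8 and 1082.2 (log2 -0.24, SE 0.09, adjusted p = 0.0332). Xbp1 was at 91.9, 165.7 and 203.9 CPM against 117.5, 189.4 and 243.6 (log2 -0.34, SE 0.13, adjusted p = 0.0325). Both overlapped widely, with 6 of 8 libraries below the median of the others (7 for Hsp90b1 and 8 for Xbp1 after TMM scaling). The calls were lost in 7 (Hsp90b1) and 10 (Xbp1) of 26 fits without 1 library, and both with no filter on low counts, with the replicate block, in females alone and in males alone. Under 12:12 alone Hsp90b1 was at -0.38 (adjusted p = 0.0178) and Xbp1 at -0.64 (adjusted p = 0.00391). Under jet lag alone they were at -0.08 (adjusted p = 0.786) and -0.03 (adjusted p = 0.942), and the difference between the lightings was not tested. The other 6 ranged from -0.38 (Dnajb9, adjusted p = 0.129) to 0.41 (Sdf2l1, adjusted p = 0.156). XBP1 is also needed by plasma cells, whose markers were higher in the same libraries, and their part was not tested.

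Related genes outside the 34 were counted in the same fits. Under jet lag none of 23 mitochondrial or other synthetase relatives, 27 further ATF4 targets, 24 further ER folding genes and 8 stress sensors passed. In libraries high in Cd79a, where 23.1% of all genes were higher and 19.6% lower, 12 of the 27 ATF4 targets were higher and 2 lower, with a median of 0.38 against -0.02 over all genes. They were led by the amino acid transporters Slc1a5 (log2 3.75, adjusted p = 1.95e-11) and Slc7a1 (3.96, adjusted p = 3.29e-11) and by Aldh18a1 of proline synthesis (3.05, adjusted p = 5.05e-11). Of the ER folding genes 8 of 24 were lower, led by Derl1 (-0.42, adjusted p = 0.000184), and 1 was higher. Of the synthetase relatives 4 were higher, among them the mitochondrial methionine enzyme Mars2 (1.05, adjusted p = 2.63e-06), and 5 were lower. Of the sensors 3 were higher, with Eif2s1, which encodes the alpha subunit of eIF2, first (0.55, adjusted p = 0.000242), and 2 were lower. Between the sexes the background was 4.67% of all genes higher and 4.46% lower in females. There 2 relatives were lower in females, Iars2 and Nars2, and of the ATF4 targets Vldlr was higher (2.77, adjusted p = 6.36e-07) and Ppp1r15a lower (-0.42, adjusted p = 0.00961).

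Spread between libraries of a group is given by class, as a description. Over the 18 libraries below 8 CPM of Cd79a, the SD of TMM-scaled log2 CPM (prior count 2) within groups was 0.11 to 0.26 for synthetases (median 0.16), 0.2 to 0.87 for the ATF4 class (median 0.6) and 0.13 to 0.51 for the ER class (median 0.4). Single libraries often held the extremes of several genes. Female 2 under jet lag was the highest of 26 for 5 of the 8 ER genes, with 916.7 CPM of Hspa5, 1203.4 of Hsp90b1, 32.2 of Sdf2l1, 42.2 of Creld2 and 348.3 of Pdia4. Female 1 under jet lag was the lowest for Hspa5 (307.8), Sdf2l1 (5.0), Creld2 (8.75) and 5 synthetases. Female 6 under 12:12 was the highest for 9 of 18 synthetases, for Psat1 and for Phgdh, and male 8 under jet lag for Iars, Rars, Vars, Wars and Asns. Of these 4 libraries, female 1 was below 8 CPM of Cd79a and the other 3 above it.

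**Figure D5:**
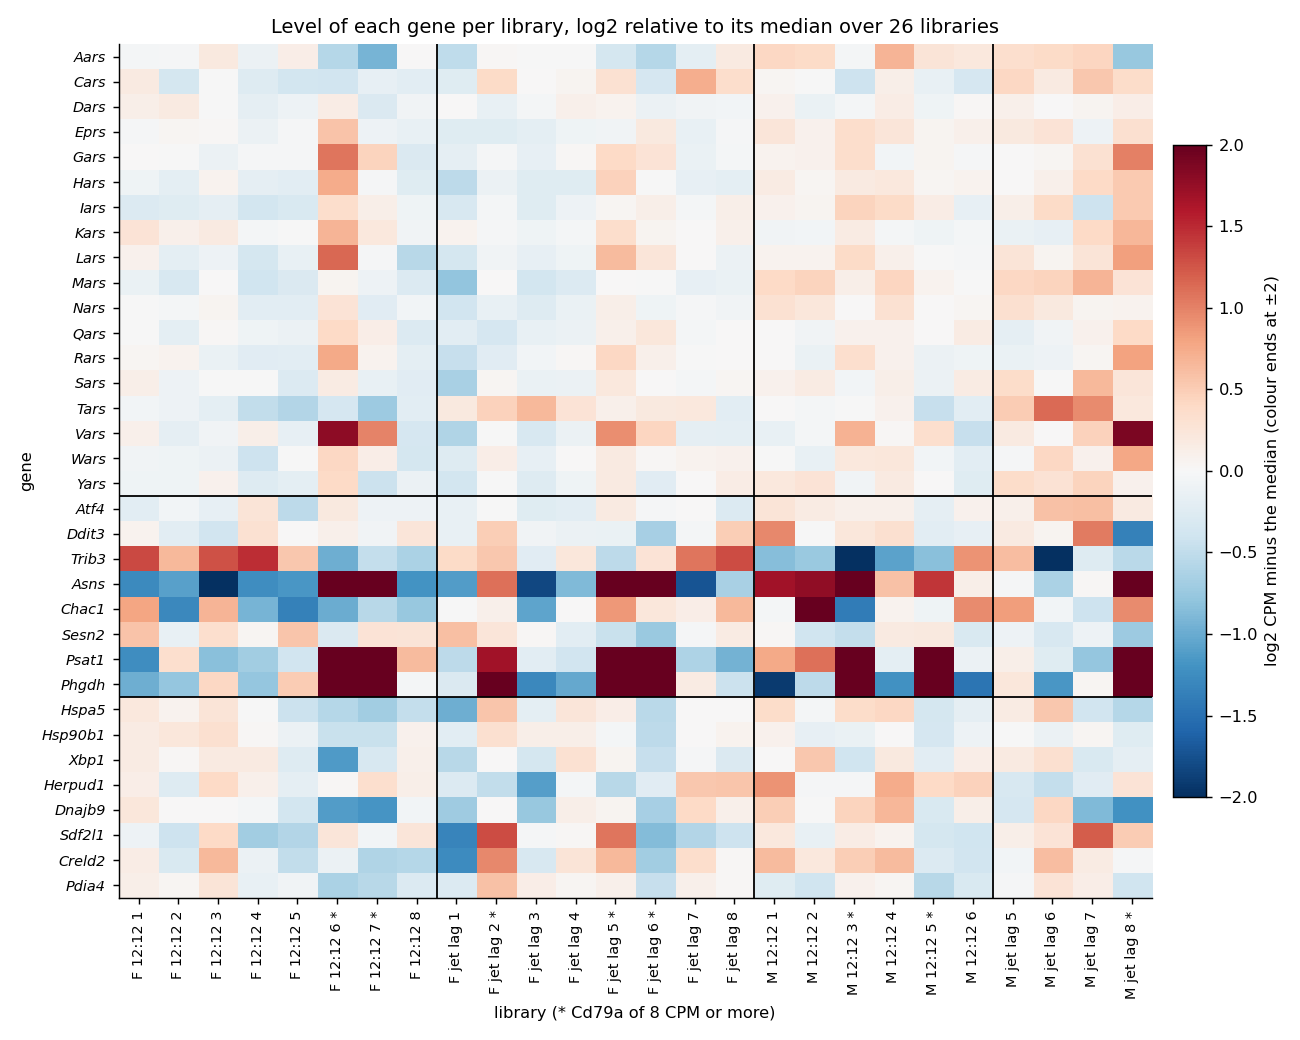
Level of each of the 34 genes (rows, by class) in each of the 26 libraries (columns, by group), as TMM-scaled log2 CPM minus the gene's median, in colour that ends at 2 on either side; stars mark libraries at or above 8 CPM of Cd79a. The columns of female 6 under 12:12 and male 8 under jet lag stand out in the synthetases and in Asns, Psat1 and Phgdh, and that of female 2 under jet lag in the ER genes.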

How the data were processed

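The 26 libraries were stranded mRNA libraries of liver RNA on a DNBSEQ platform, per the labels' protocols. The deposited raw table holds expected counts per gene name, not normalized by the authors, with 0.015 in place of 0 in 45.82% of cells. That value was set to 0, the 1.44% of cells that were not whole (tolerance 1e-06) were rounded, and 39 names on several lines were summed. STAR, DESeq2 and mm10 are named without versions, per the submitters' processing notes, while the step that counted reads, with its annotation and its use of strand, is not stated there. The authors also deposited a DESeq2 table, from which the log2 fold change and the adjusted p-value of the 34 genes were copied, and a normalized table, which was not used here.

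Samples were grouped by the sex and lighting in their titles. Genes were filtered with filterByExpr of edgeR 4.0.16 (count minimum 10), scaled by TMM and tested with glmQLFit (robust) and glmQLFTest over all 26 libraries, with Benjamini-Hochberg adjustment and a threshold of 0.05. CPM values in the text are counts over the library total, without the TMM factors, except where they are said to be scaled (a check chosen after seeing the data). Models held sex and lighting, the 4 group means for the values within a sex and the interaction, or sex, lighting and the Cd79a class. The SE is the log2 difference over the square root of F. No pair of libraries within a group agreed within sampling noise (chi-square per degree of freedom at least 31.5). The jet lag and Cd79a fits were also run on simulated counts with fewer changed genes than the Cd79a split called. That outcome is not used here. Every one of the 34 genes could be named, with values for those that passed in any comparison and for the 2 of smallest p under jet lag in a class with none. From further lists at most 3 genes that passed were named. The members and lists were chosen with earlier results of these data known. Alternatives were DESeq2 1.42.0, limma-voom (limma 3.58.1), DESeq2 size factors, no filter, the replicate block, Cd79a settings and leaving out each library. Motifs were searched on both strands of the 250 bases upstream.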

Additional observations from a re-analysis of the deposited data

Results flagged for a closer look

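In 136 sets of values (34 genes in 4 groups), the highest or lowest library was set against the others, in TMM-scaled log2 CPM. On that scale 17 stood apart by more than Dixon's limit, where chance alone gives about 1 in 20. The levels printed below are plain CPM, so their gaps need not pass that limit, and other libraries may stand apart by plain CPM. Of the 17, 14 were in libraries at or above 8 CPM of Cd79a.

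Female 6 under 12:12 stood above its group in Eprs (266.7 CPM, the others 148.8 to 177.5), Hars (78.2), Kars (150.7), Lars (93.1) and Rars (77.4, the others 34.9 to 51.3), and below it in Xbp1 (91.9, the others 146.8 to 207.2). Male 3 under 12:12 stood above its group in Gars (62.7), Kars (96.6) and Lars (50.4 CPM), and male 5 below it in Atf4 (59.2, the others 63.6 to 72.2). Male 8 under jet lag stood above its group in Asns (12.9, the others 0.487 to 0.879) and Psat1 (30.3, the others 0.298 to 0.732 CPM), and below it in Aars (157.4, the others 263.8 to 315.3). Female 5 under jet lag stood above its group in Kars (116.5 CPM). These libraries are all among the 8 high in Cd79a.

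Of the libraries low in Cd79a, female 1 under jet lag stood below its group in Mars (41.1, the others 54.0 to 73.7) and Sars (43.1, the others 60.4 to 81.2 CPM). Female 3 under jet lag stood below its group in Chac1 (0.561, the others 1.19 to 2.37 CPM).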

How the results depend on the processing

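No sign of a called member turned under any setting run. Under jet lag over both sexes the count of 2 members went to 1, Tars, in some settings. These were no filter on low counts, limma-voom, the replicate block and leaving out the libraries at or above 8 CPM of Cd79a. In that order they called 0.344%, 0.681%, 0.657% and 2.32% of all genes, against 0.781%. The count was 1 to 2 when single libraries were left out. Tars alone was called in females with DESeq2 (1 member, against 0, and 0.326% of all genes). In males Tars alone was called with DESeq2 (0.527% of all genes), without the libraries high in Cd79a (1.33%) or with the Cd79a class as a covariate (0.231%). Leaving out single libraries gave 0 to 0 in females and 0 to 1 in males. The males had 1 without male 3 under 12:12 (0.267% of all genes) or male 8 under jet lag (0.62%). The interaction had 0 throughout. Between the sexes the count of 4 (9.13% of all genes) became 2 with no filter, 12 without the libraries high in Cd79a and 8 with the Cd79a class as a covariate. Without single libraries it was 1 to 8. It was 1 without male 1 or 2 or female 5 under 12:12 or male 6 under jet lag (6.6% to 7.85% of all genes). It was 2 without female 4 or 7 or male 4 under 12:12 (7.29% to 8.71%), and 8 without female 6 under 12:12 (10.8%). The share of all genes moved with these counts, so the shifts are not particular to the members. For Cd79a the count of 16 became 4 in males alone and 7 under jet lag alone, settings with fewer libraries chosen after seeing the data, and 11 to 18 without single libraries. Where not named above, the cause was not tested.

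The labels do not say whether equal replicate numbers mark paired mice. Deviations of libraries with equal numbers correlated at -0.384 to 0.602 in females, and at -0.269 and 0.267 in males. The highest was that of females 6, both high in Cd79a, so these values cannot decide whether the mice were paired. With the replicate block, Cars was lost under jet lag (adjusted p = 0.242), and the Cd79a count fell from 16 to 3 (Asns, Psat1 and Phgdh) as all genes went from 42.7% to 7.48%. The block was not run for sex and for the interaction. Of single called members, 49 values lost the call and 181 kept it over the other settings, and 68 lost it and 504 kept it without 1 library. At these depths Phgdh, with 1 to 15 counts in the 18 libraries low in Cd79a, is the least precise level.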
